A study of Mus musculus with 20 samples.

Results

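The transcripts of 8 genes of the aryl hydrocarbon receptor pathway were followed in the livers of 20 male C57Bl/6J mice on a high-fat diet (HFD, 42% of energy from fat). The genes are the receptor Ahr, its partner Arnt, the repressors Ahrr and Tiparp, and the target enzymes Cyp1a1, Cyp1a2, Cyp1b1 and Nqo1. They were taken by symbol, and all 8 were among the 21780 genes of the deposited count table and among the 15522 genes tested. There were 5 mice in each of 4 groups, namely HFD control, HFD + Aroclor (Aroclor 1260, 20 mg/kg), HFD + PCB 126 (20 µg/kg) and HFD + Aroclor + PCB 126 (both doses). By the study's methods, mice entered at 8 weeks of age, received a single gavage of corn oil or the PCBs at 10 weeks of age after 2 weeks of the diet, and were fasted for 6 h before the livers were taken 10 weeks later, while the sample labels give 12 weeks of exposure. All groups shared the diet, and a control diet was not analysed here.

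The aryl hydrocarbon receptor (AHR) is a ligand-activated transcription factor that is held in the cytosol in a complex with the chaperone HSP90. Dioxins and coplanar PCBs bind it, after which it enters the nucleus, pairs with ARNT and binds DNA elements with the core GCGTG. In hepatocytes its classical targets are the cytochrome P450 genes Cyp1a1 and Cyp1a2, and it also induces its own brakes: AHRR competes for ARNT, and TIPARP, a mono-ADP-ribosyltransferase, modifies AHR. PCB 126 is a dioxin-like congener and one of the strongest AHR ligands among PCBs, whereas Aroclor 1260 is a commercial mixture of mostly non-dioxin-like congeners. The comparisons therefore ask how far the pathway's transcripts differed with PCB 126, with Aroclor 1260 and with both.

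Cyp1a1 and Cyp1a2 are neighbours on chromosome 9 that point away from each other, with RefSeq start sites 13958 bases apart. The 250 bases before each start site (RefSeq, GRCm38.p6) are shown because these were the members called higher with PCB 126 in mice without Aroclor, and capitals mark the core GCGTG.
Cyp1a1, chr9:57697363-57697612, plus strand: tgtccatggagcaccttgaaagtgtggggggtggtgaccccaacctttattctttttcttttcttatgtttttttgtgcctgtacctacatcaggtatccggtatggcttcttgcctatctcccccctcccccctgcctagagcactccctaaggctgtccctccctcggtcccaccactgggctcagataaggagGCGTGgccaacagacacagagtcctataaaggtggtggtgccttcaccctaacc
Cyp1a2, chr9:57683656-57683905, minus strand: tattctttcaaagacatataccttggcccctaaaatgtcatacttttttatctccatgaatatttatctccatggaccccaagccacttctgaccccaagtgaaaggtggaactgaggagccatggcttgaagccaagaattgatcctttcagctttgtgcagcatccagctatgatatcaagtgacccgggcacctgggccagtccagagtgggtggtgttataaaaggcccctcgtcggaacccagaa
The core was searched on both strands, where the reverse strand reads CACGC. It begins 54 bases before the start of Cyp1a1 and does not occur in the window of Cyp1a2, and both windows hold a TATAA box, which begins 30 bases before the start of Cyp1a1 and 29 bases before that of Cyp1a2. TATAA was searched on the strand of the gene and does not overlap the core in either window. Windows of the same length hold the core in 28.2% and TATAA in 15.9965% of all 32851 promoters. Among the 7 members with a promoter sequence, 5 held the core, and its surroundings are shown for the other 4 to set them beside Cyp1a1.
Ahrr, chr13:74292424-74292448: ttgaaagggcGCGTGgcaggcaggg
Ahrr, chr13:74292399-74292423: acaaggatgtGCGTGcgccctctgc
Ahrr, chr13:74292344-74292368: ggggcggctcGCGTGctggggtggg
Tiparp, chr3:65528267-65528291: ccgtccggagCACGCgcacgggagg
Cyp1b1, chr17:79715123-79715147: tcccgcccctCACGCcccaccccct
Arnt, chr3:95434351-95434375: atagtttgggGCGTGtcttctgccc
All are written on the strand of the gene. A match of these letters is a description of the sequence and not a measured binding site.

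The 20 libraries held between 21836506 and 36854887 counts. Hepatocyte transcripts were high in every library, with a summed level of 70091 to 101968 CPM (counts per 1000000 counts of the library after TMM scaling) over 6 markers including Alb and Ttr. Over all libraries the summed CPM ranged from 62.9 to 130.0 for 5 cholangiocyte markers, from 85.2 to 217 for 7 stellate cell and fibroblast markers, from 80.4 to 182 for 5 endothelial markers, from 109.7 to 431 for 6 Kupffer cell and macrophage markers, from 8.47 to 23.1 for 6 lymphocyte markers, from 20356 to 28838 for 6 pericentral and from 3376 to 6711 for 6 periportal hepatocyte markers. None of these 47 markers was at 0 in any library. With PCB 126 in either background, with Aroclor alone and in the interaction none of the 47 was called. With both PCBs 6 were higher and 7 lower than in HFD control, where 32.8% of all genes were called. Against PCB 126 alone 2 were higher and 5 lower with both PCBs, where 16.7% of all genes were called. HFD control replicate 4 and HFD + Aroclor + PCB 126 replicate 4 stood apart, because they held adrenal transcripts. The summed CPM of 11 adrenal cortex and medulla genes, among them Cyp11b1, Star and Th, was 2818 and 1981 in these 2 livers against 0.799 to 2.39 in the other 18, and each of the 11 was higher in both than in all 18. In those 18 at least 2 of the 6 cortex genes and 3 of the 5 medulla genes were at 0. This list was made after the values were seen, and the results below are given with and without the 2 libraries where they rest on them. Libraries also differed in how their counts followed GC content. The slope of the log2 CPM for each 10 percentage points of GC was -0.38 ± 0.21 (SD, n = 5) in the livers with both PCBs, against group means of 0.011 to 0.25 elsewhere (0.25 ± 0.18 in HFD control), so GC slope and combined exposure cannot be told apart. The mRNA GC content of the members ranged from 41.8% for Tiparp to 51.7% for Cyp1a2.

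Per length of transcript, Cyp1a2 was far above the other members in all groups. In HFD control its level was 192 ± 49.4 CPM per kb (SD, n = 5). Nqo1 followed at 7.33 ± 3.27, Ahr at 5.70 ± 2.28, Arnt at 3.91 ± 0.746 and Tiparp at 1.86 ± 1.34 CPM per kb. Nqo1 and Ahr, and Ahr and Arnt, differed by less than their spread. Cyp1b1 at 0.255 ± 0.280, Cyp1a1 at 0.220 ± 0.102 and Ahrr at 0.0271 ± 0.0262 CPM per kb were the lowest, and the levels of Cyp1b1 and Cyp1a1 also lay within their spread. In HFD + PCB 126 Cyp1a2 reached 790.0 ± 301 CPM per kb and remained the highest. The mean of Cyp1a1 there was 28.2 ± 48.1 CPM per kb, the second highest, but replicate 4 carried it at 112.8 CPM per kb. Without that liver the mean was 7.05 ± 10.2 CPM per kb (SD, n = 4), against 8.56 ± 3.23 for Nqo1, and the median of all 5 was 2.80 CPM per kb, below the medians of Nqo1 (7.23), Ahr (5.56) and Arnt (5.26) and above that of Tiparp (2.24).

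Cyp1a1 (ENSMUSG00000032315, chromosome 9, 57687928 to 57703824, plus strand, GRCm38) encodes the P450 that oxidizes polycyclic aromatic compounds and is the transcript most often used as a readout of AHR. Its level in HFD control was 0.940, 0.799, 0.458, 0.219 and 0.645 CPM in replicates 1 to 5, from 5 to 36 counts. In HFD + PCB 126 it was 4.09, 7.80, 4.60, 314 and 62.1 CPM, from 137 to 7574 counts. Every liver exposed to PCB 126 alone was thus above every control liver, but those 5 livers differed among themselves by 76.9-fold, and replicates 4 and 5 were far above the other 3. The fitted log2 fold change (log2FC) was 6.93 (standard error 1.08, 95% interval 4.69 to 9.17, edgeR adjusted p = 0.00950). It describes the ratio of the means, 78.6 against 0.612 CPM, and replicate 4 carries much of it: without that library the log2FC was 4.94 (adjusted p = 0.00457). On the mean of the log2 CPM values the difference was 4.98 (p = 0.00794 in an exact two-sided permutation test, which is the lowest value that the 252 possible splits can give). A fit with only the libraries of the groups compared gave an adjusted p of 0.179 at a log2FC of 6.96. In replicates 4 and 5 the summed endothelial markers were 80.4 and 93.2 CPM and the Kupffer cell and macrophage markers 160.5 and 109.7 CPM, against 115.8 to 140.0 and 239 to 289 CPM in replicates 1 to 3 and 85.8 to 179 and 163 to 382 CPM in HFD control. None of these 5 and 6 markers passed with PCB 126 in mice without Aroclor, and their part in the Cyp1a1 values was not tested.

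Cyp1a2 (ENSMUSG00000032310, chromosome 9, 57676937 to 57683703, minus strand) encodes the constitutive hepatic member of the family, which metabolizes caffeine and arylamines and binds dioxin-like compounds in the liver. Its level in HFD control was 356, 437, 517, 249 and 374 CPM. In HFD + PCB 126 it was 1120.0, 1127, 1495, 2601 and 1608 CPM, and the groups did not overlap. The rise was 4.11-fold (log2FC 2.04, standard error 0.237, 95% interval 1.55 to 2.53, edgeR adjusted p = 2.94e-04; exact permutation p = 0.00794). The highest of the exposed livers was 2.32-fold above the lowest, a far narrower spread than that of Cyp1a1. Bulk RNA cannot tell apart more RNA in each cell from more cells of a type, and the summed pericentral hepatocyte markers, which do not include Cyp1a2, were 20981 to 26077 CPM in HFD control and 24590 to 28766 CPM in HFD + PCB 126, with none of the 6 past the test. Leaving out each library in turn kept the log2FC between 1.79 and 2.19 with an adjusted p of at most 0.00230. Cyp1a1 and Cyp1a2 are related in sequence, and 63 of the 2712 distinct stretches of 75 bases in Cyp1a1 transcripts also occur in Cyp1a2 transcripts, and reads inside them cannot be given to either gene alone. Per length, Cyp1a1 was 0.0636% to 0.191% of Cyp1a2 in HFD control and 0.222% to 8.73% in HFD + PCB 126.

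**Figure D1:**
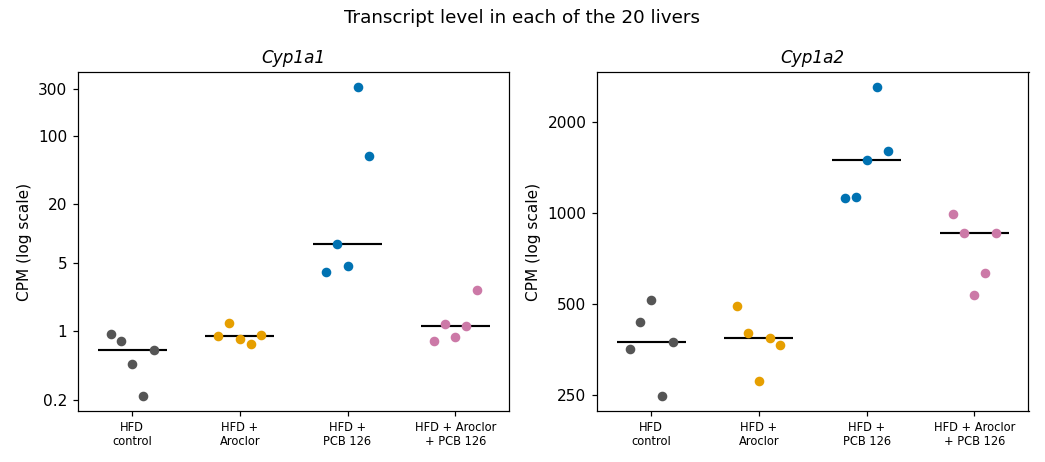
Level of Cyp1a1 and Cyp1a2 in CPM on log axes, where each point is a liver (replicates 1 to 5 from left to right) and the line is the median of its group. All 5 HFD + PCB 126 livers lie above all 5 HFD control livers for both genes, Cyp1a1 reaches 314 CPM in a single liver, and with both PCBs Cyp1a1 is back near 1 CPM while Cyp1a2 stays above the control livers.

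Of the 8 members, 2 were called higher with PCB 126 in mice without Aroclor (Cyp1a1 and Cyp1a2), none lower, and the background over all genes was 0.116% (18 of 15522). The same 2 members did not overlap between these groups, where 2.14% of all genes did not overlap. The median log2FC over the 8 members was 0.31, and -0.018 over all genes. The values of the other 6 are given below by gene.

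In mice that also received Aroclor, the PCB 126 response of Cyp1a1 was not detected. The 5 HFD + Aroclor livers had 0.898, 1.23, 0.838, 0.737 and 0.922 CPM of Cyp1a1, and the 5 HFD + Aroclor + PCB 126 livers had 0.792, 1.19, 0.875, 1.13 and 2.62 CPM. A single liver of the combined exposure, replicate 5, was above all HFD + Aroclor livers. The log2FC was 0.53 (standard error 1.03, adjusted p = 0.782), and its 95% interval of -1.61 to 2.67 ends below the lower bound of the response without Aroclor. The exact permutation p was 0.302. EdgeR estimates 1 spread for each gene over all 4 groups, so the wide spread in HFD + PCB 126 enters every Cyp1a1 interval. The SD of its log2 CPM was 2.73 in that group, 0.25 in HFD + Aroclor and 0.65 with both PCBs. Cyp1a2 was 492, 400.0, 279, 385 and 367 CPM in HFD + Aroclor and 992, 856, 537, 632 and 858 CPM in HFD + Aroclor + PCB 126. These groups did not overlap (exact permutation p = 0.00794), while the log2FC of 1.01 (standard error 0.231, 95% interval 0.53 to 1.49) had an adjusted p of 0.0537. Over the alternatives that adjusted p ran from 0.00233 with DESeq2 to 0.165 without HFD + Aroclor + PCB 126 replicate 5, at log2FC from 0.91 to 1.12. None of the 8 members was called in this comparison by edgeR, where the background was 0.412% called. An unadjusted p under 0.05 was found for 2 of the 8 (Cyp1a2 and Arnt) and for 3639 of the 15522 genes. DESeq2 called these 2 members and 1343 of all genes. The same 2 members did not overlap between the groups, where 6.76% of all genes did not overlap.

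The test of the difference between the PCB 126 effects with and without Aroclor gave an interaction of -6.40 on the log2 scale for Cyp1a1 (standard error 1.45, 95% interval -9.42 to -3.37, unadjusted p = 2.57e-04, edgeR adjusted p = 0.284). For Cyp1a2 it was -1.03 (standard error 0.324, 95% interval -1.70 to -0.35, unadjusted p = 0.00462, adjusted p = 0.287). Neither passed after adjustment, and edgeR called 0% of the 15522 genes in this test, with 1846 at an unadjusted p under 0.05. DESeq2 called 1 gene in the interaction, Cyp1a1 (adjusted p = 0.00207). Without HFD + PCB 126 replicate 4 the interaction of Cyp1a1 was the smallest in size of the 20 fits that left out a library, at -4.42. The other 6 members had adjusted p from 0.423 to 0.991 in the interaction.

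**Figure D2:**
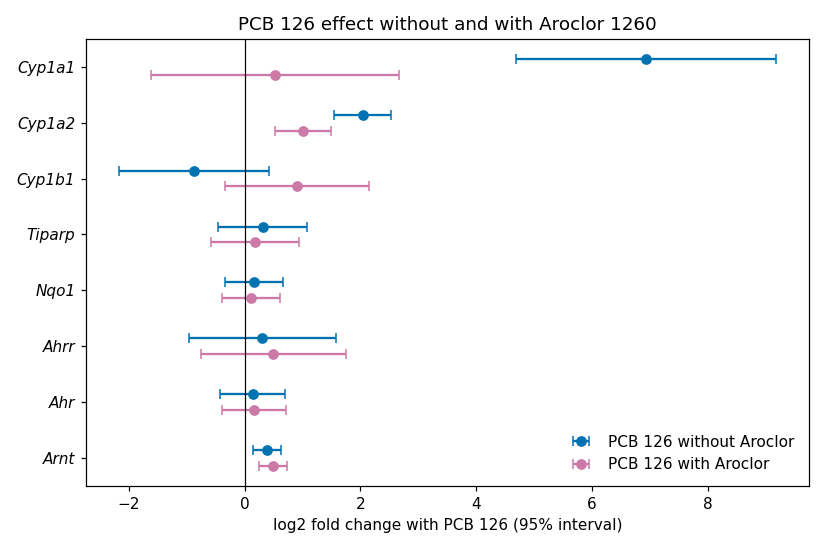
Log2 fold change of each member with PCB 126, in mice without Aroclor (HFD + PCB 126 against HFD control) and with Aroclor (HFD + Aroclor + PCB 126 against HFD + Aroclor), with 95% intervals from the edgeR fit of 20 libraries. Cyp1a1 stands at 6.93 without and 0.53 with Aroclor, Cyp1a2 at 2.04 and 1.01, and Arnt at 0.39 and 0.50, while the intervals of the other 5 include 0 in both comparisons.

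Set directly against each other, the livers with both PCBs had less Cyp1a1 and Cyp1a2 than those with PCB 126 alone. Cyp1a1 was lower by a log2FC of -5.87 (standard error 1.00, 95% interval -7.96 to -3.78, edgeR adjusted p = 0.0136), and all 5 livers with both PCBs were below all 5 with PCB 126 alone (exact permutation p = 0.00794). Without HFD + PCB 126 replicate 4 the log2FC was -3.88 (adjusted p = 0.0489). Cyp1a2 was lower by a log2FC of -1.04 (standard error 0.231, 95% interval -1.52 to -0.56, adjusted p = 0.0144), again without overlap. Its call did not hold without HFD + PCB 126 replicate 4 (log2FC -0.79, adjusted p = 0.0522) or after GC correction (log2FC -1.01, adjusted p = 0.0516). These 2 of the 8 members were called, where 16.7% of all genes were called and 9.9% did not overlap.

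Aroclor in mice without PCB 126 left no member past the threshold. Cyp1a2 had a log2FC of -0.0075 (95% interval -0.48 to 0.47, adjusted p = 0.988) and Cyp1a1 of 0.53 (95% interval -1.79 to 2.84, adjusted p = 0.817). The exact permutation p of Cyp1a1 was 0.0714, and its edgeR interval takes in the spread of HFD + PCB 126. EdgeR called none of the 8 and 0% of all genes, none of the 8 had an unadjusted p under 0.05, and 2677 of all genes did. DESeq2 called none of the 8 and 135 of all genes. None of the 8 separated the groups without overlap, against 2.94% of all genes.

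Ahr (ENSMUSG00000019256, chromosome 12, 35497974 to 35535038, minus strand), the receptor itself, was 21.7, 30.0, 37.9, 27.9 and 58.0 CPM in HFD control. It was 45.5, 36.4, 33.3, 61.6 and 69.9 CPM in HFD + Aroclor and 34.3, 47.4, 27.3, 30.4 and 53.6 CPM in HFD + PCB 126. With both PCBs it was 48.1, 66.9, 32.5, 60.0 and 68.0 CPM, and all groups overlapped. With PCB 126 the log2FC was 0.14 without Aroclor (95% interval -0.42 to 0.70, adjusted p = 0.853) and 0.16 with it (95% interval -0.39 to 0.71, adjusted p = 0.745). The combined exposure against HFD control gave 0.65 (standard error 0.268, adjusted p = 0.0674), which passed without HFD control replicate 5 (log2FC 0.91, adjusted p = 0.0126) and without HFD + Aroclor + PCB 126 replicate 3 (log2FC 0.79, adjusted p = 0.0265). After GC correction the log2FC of this comparison was 0.36 (edgeR adjusted p = 0.381). The antisense gene Gm48236 shares 127 exon bases with Ahr and was not in the count table, and whether the counting used the strand is not given in the sources used here.

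Arnt (ENSMUSG00000015522, chromosome 3, 95434388 to 95497240, plus strand) encodes the nuclear partner that AHR shares with hypoxia-inducible factors. Its level was 28.2, 29.0, 24.8, 34.9 and 39.8 CPM in HFD control and 38.2, 30.9, 34.2, 35.3 and 36.2 CPM in HFD + Aroclor. It was 42.1, 43.2, 33.6, 38.6 and 46.9 CPM in HFD + PCB 126 and 50.2, 53.4, 43.4, 46.9 and 52.9 CPM with both PCBs. The group means thus stood in the order HFD control, HFD + Aroclor, HFD + PCB 126 and both, at 31.3 ± 5.97, 35.0 ± 2.68, 40.9 ± 5.03 and 49.4 ± 4.21 CPM (SD, n = 5), and neighbours in this order overlapped in each case. PCB 126 gave a log2FC of 0.39 without Aroclor (standard error 0.117, adjusted p = 0.153) and of 0.50 with it (standard error 0.116, adjusted p = 0.0558, no overlap). The combined exposure raised Arnt above HFD control by 1.58-fold (log2FC 0.66, standard error 0.117, 95% interval 0.41 to 0.90, edgeR adjusted p = 0.00104), and after GC correction the log2FC was 0.42 (adjusted p = 0.00995). The combined exposure livers, all 5 above all control livers for Arnt, are also those with the lowest GC slopes.

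The combined exposure against HFD control called 2 of the 8 members, both higher: Arnt and Cyp1a2, the latter with a log2FC of 1.00 (standard error 0.231, adjusted p = 0.00325). Cyp1a1 was 1.32 ± 0.746 CPM with both PCBs against 0.612 ± 0.284 CPM in HFD control (log2FC 1.06, adjusted p = 0.502). The share called was below the background, as 32.8% of all genes were called, and 2 of the 8 did not overlap between the groups, where 18.8% of all genes did not.

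Ahrr (ENSMUSG00000021575, chromosome 13, 74211118 to 74292331, minus strand), the AHR repressor, was close to the limit of detection, at 1 to 22 counts in a library. It was 0.0261, 0.314, 0.153, 0.658 and 0.129 CPM in HFD control and 0.266, 0.350, 0.173, 0.246 and 0.246 CPM in HFD + Aroclor. In HFD + PCB 126 it was 0.447, 0.226, 0.364, 0.332 and 0.176 CPM, and with both PCBs 0.220, 0.0426, 0.280, 0.800 and 0.455 CPM. The log2FC with PCB 126 was 0.31 without Aroclor (95% interval -0.97 to 1.58) and 0.50 with it (95% interval -0.75 to 1.75), and neither passed. Its highest values, 0.800 and 0.658 CPM, were in the 2 livers with adrenal transcripts, and without them these log2FC were 0.98 (adjusted p = 0.419) and -0.016 (adjusted p = 0.998).

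Tiparp (ENSMUSG00000034640, chromosome 3, 65528410 to 65555518, plus strand), the other brake on AHR, was 5.70, 7.30, 3.66, 5.53 and 18.3 CPM in HFD control. It was 10.7, 15.5, 8.96, 9.97 and 16.9 CPM in HFD + Aroclor and 11.9, 14.9, 4.50, 8.88 and 9.78 CPM in HFD + PCB 126. With both PCBs it was 10.2, 14.1, 7.77, 18.3 and 20.004 CPM. HFD control replicate 5 was far above the other control livers, which were at most 7.30 CPM and so below every liver of HFD + Aroclor and of both PCBs. With PCB 126 the log2FC was 0.31 without Aroclor (adjusted p = 0.739) and 0.18 with it (adjusted p = 0.791). With both PCBs against HFD control it was 0.80 ± 0.370 (standard error) with an adjusted p of 0.102, and the adjusted p was 0.00518 at a log2FC of 1.34 when HFD control replicate 5 was left out. After GC correction the log2FC of this comparison was 0.32 (edgeR adjusted p = 0.601). Tiparp shares 223 exon bases with the antisense gene 4931440P22Rik, which was not in the count table.

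Cyp1b1 (ENSMUSG00000024087, chromosome 17, 79701537 to 79715061, minus strand), the P450 of the family that is typical of steroid-producing and stromal cells, was 1.15, 0.770, 0.496, 4.39 and 0.645 CPM in HFD control and 0.798, 1.52, 0.838, 1.34 and 1.54 CPM in HFD + Aroclor. In HFD + PCB 126 it was 1.37, 0.612, 0.861, 0.622 and 0.492 CPM, and with both PCBs 1.10, 0.554, 1.29, 6.84 and 1.43 CPM. Its 2 highest values, 6.84 and 4.39 CPM, were in the 2 livers with adrenal transcripts, and the highest of the other 18 was 1.54 CPM. With PCB 126 the log2FC was -0.88 without Aroclor (adjusted p = 0.531) and 0.90 with it (adjusted p = 0.365). Without the 2 livers these became 0.040 (adjusted p = 0.973) and -0.14 (adjusted p = 0.858), so both changed sign. With Aroclor on PCB 126 the log2FC of Cyp1b1 was 1.49 (adjusted p = 0.0916), which passed with DESeq2 (adjusted p = 0.0465) and without HFD control replicate 4 (adjusted p = 0.0409), and it was 0.44 (adjusted p = 0.394) without the 2 livers. The part of adrenal tissue in the Cyp1b1 and Ahrr values was not tested beyond leaving out these libraries.

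**Figure D3:**
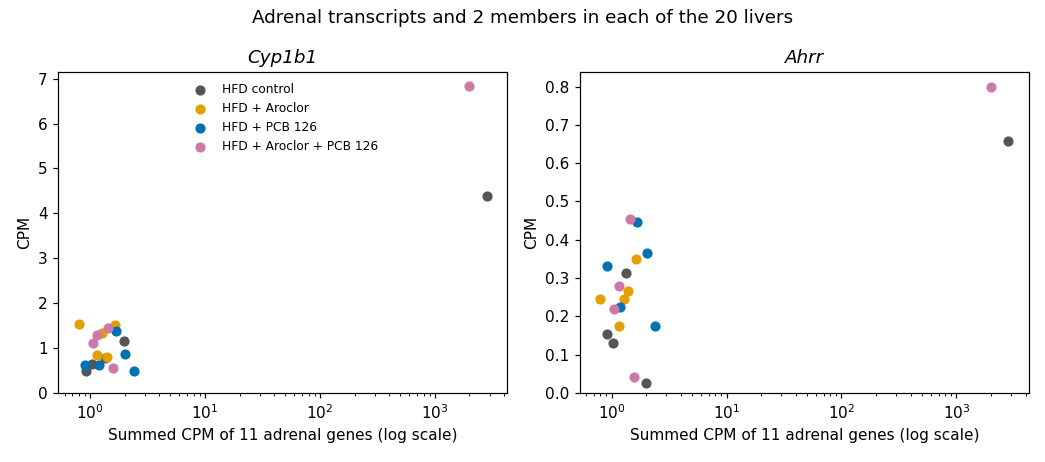
Summed CPM of 11 adrenal genes on a log axis against the CPM of Cyp1b1 and of Ahrr, with a point for each liver. The 2 livers at 1981 and 2818 CPM of adrenal transcripts, replicates 4 of HFD + Aroclor + PCB 126 and of HFD control, hold the highest Cyp1b1 and Ahrr values.

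Nqo1 (ENSMUSG00000003849, chromosome 8, 107388225 to 107403206, minus strand) encodes a quinone reductase that AHR and NRF2 both induce. It was 18.97, 13.8, 9.72, 5.97 and 8.51 CPM in HFD control and 15.6, 16.5, 13.9, 14.1 and 10.4 CPM in HFD + Aroclor. In HFD + PCB 126 it was 20.5, 9.05, 11.2, 10.9 and 12.4 CPM, and with both PCBs 15.8, 13.2, 14.3, 15.9 and 16.9 CPM. The groups overlapped throughout, with a log2FC for PCB 126 of 0.17 without Aroclor (95% interval -0.34 to 0.67, adjusted p = 0.797) and 0.11 with it (95% interval -0.39 to 0.61, adjusted p = 0.802). These intervals end well below the 4.11-fold rise of Cyp1a2 with PCB 126 in mice without Aroclor.

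**Figure D4:**
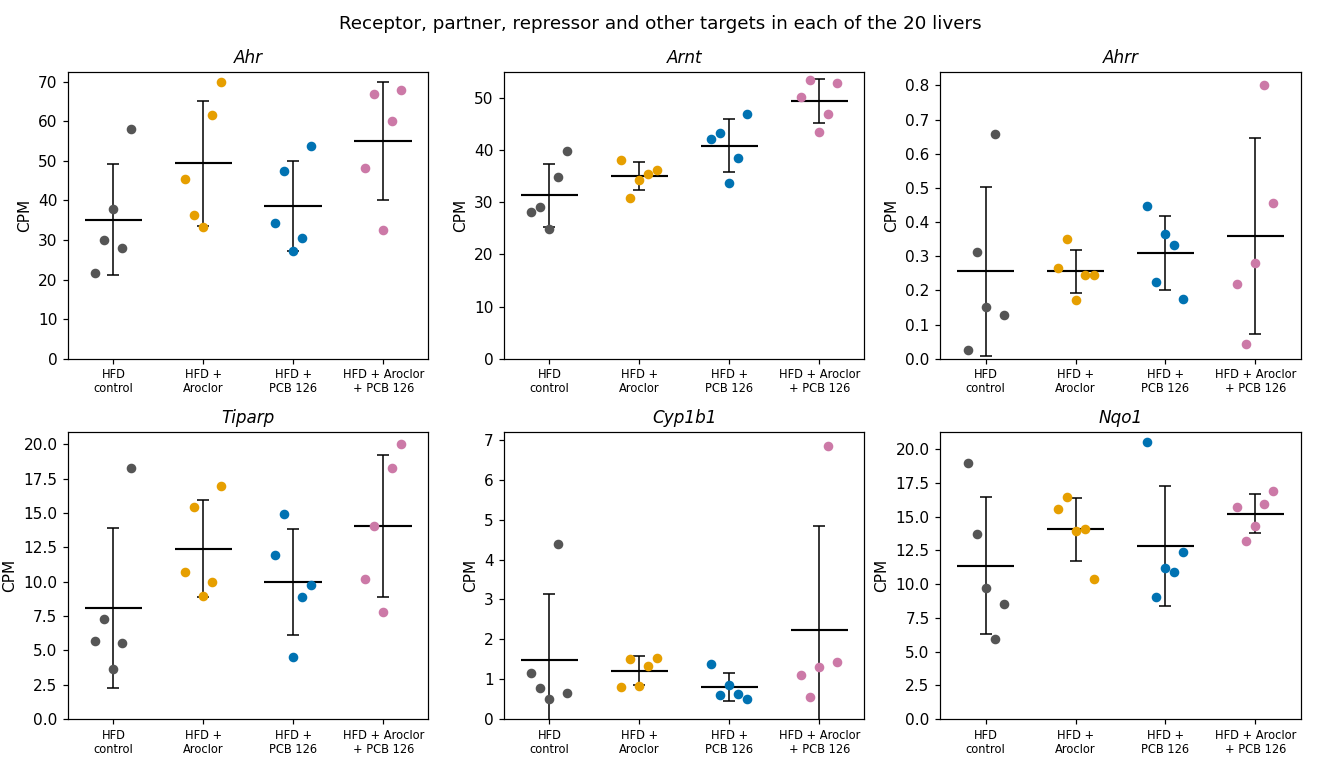
Level in CPM of the other 6 members, with a point for each liver (replicates 1 to 5 from left to right) and the mean and SD of each group as bars (n = 5). The groups overlap widely for all but Arnt, whose group means run from 31.3 CPM in HFD control to 49.4 CPM with both PCBs, and single livers stand out for Tiparp (18.3 CPM in HFD control) and Cyp1b1 (4.39 and 6.84 CPM).

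A list of 36 other genes of the pathway was examined beside the members: 6 of the chaperone complex that holds AHR in the cytosol, 6 partners or related factors, 9 coregulators and 15 reported targets. With PCB 126 in mice without Aroclor, where 0.116% of all genes were called, 1 of the 36 was higher and none lower. It was Slc46a3 (ENSMUSG00000029650), a lysosomal membrane transporter reported as an AHR target, which was 35.5, 36.98, 39.5, 18.9 and 30.4 CPM in HFD control and 91.3, 86.4, 74.1, 122 and 95.1 CPM in HFD + PCB 126. The fitted log2FC of Slc46a3 was 1.54 ± 0.181 (standard error), with an edgeR adjusted p of 2.94e-04, and the groups did not overlap. In HFD + Aroclor it was 56.3, 47.9, 36.5, 45.5 and 34.7 CPM and with both PCBs 80.1, 83.0, 65.7, 58.4 and 82.2 CPM, also without overlap, at a log2FC of 0.74 (standard error 0.182, adjusted p = 0.0583). The other 14 reported targets did not pass with PCB 126 in mice without Aroclor.

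With PCB 126 in mice on Aroclor, where 0.412% of all genes were called, 1 of the 36 was higher and 1 lower. Fmo2 (ENSMUSG00000040170), a flavin monooxygenase, was 24.8, 25.4, 13.0, 23.2 and 15.3 CPM in HFD + Aroclor and 48.1, 33.2, 26.7, 50.1 and 43.9 CPM with both PCBs (log2FC 0.99, standard error 0.217, adjusted p = 0.0493). Rela (ENSMUSG00000024927), the NF-kappaB subunit that can pair with AHR, was 31.99, 31.9, 32.8, 35.9 and 36.6 CPM in HFD + Aroclor and 25.0, 23.0, 25.5, 16.1 and 19.9 CPM with both PCBs (log2FC -0.63, standard error 0.127, adjusted p = 0.0489). Neither passed after GC correction or without the 2 livers with adrenal transcripts, where the count over the 36 was 0. With a library left out that count ran from 0 to 6, and the count over all genes from 0 to 1011. None of the 36 passed with Aroclor alone by edgeR. An unadjusted p under 0.05 was found for 10 of the 36 and for 2677 of the 15522 genes, and DESeq2 called 2 of the 36 and 135 of all genes. None of the 36 passed in the interaction either, where 6 of them and 1846 of all genes had an unadjusted p under 0.05, and DESeq2 called none of the 36.

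The combined exposure against HFD control called 17 of the 36, with 11 higher and 6 lower where 32.8% of all genes were called, and 7 of the 36 after GC correction. By role, 7 of the 15 reported targets were higher and none lower, 2 partners were higher and 1 lower, and 2 coregulators were higher and 2 lower. The median log2FC was 0.58 over the targets and -9.6e-04 over all genes. Against PCB 126 alone, the combined exposure called 9 of the 36, with 3 higher and 6 lower, where 16.7% of all genes were called. That count was 0 after GC correction and 1 without HFD + Aroclor + PCB 126 replicate 5.

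Over the 20 livers, the pattern of Cyp1a2 was most like that of Slc46a3, with a root mean square difference of 0.398 between their centred log2 CPM values, against 0.902 for the spread of Cyp1a2 itself and a median of 0.939 over the 11335 genes compared. Next came Cyp2d12 at 0.558, Pcp4l1 at 0.586, Lonrf1 at 0.586 and Tbc1d30 at 0.593. Between Cyp1a1 and Cyp1a2 the difference was 1.65. Outside the 8 members, which were left out of both rankings, the genes closest to Cyp1a1 were E030018B13Rik at 1.72, Cyp2d12 at 1.79, Sult1e1 at 1.82, Ces2b at 1.85 and Slc46a3 at 1.90. The spread of Cyp1a1 itself was 2.34, so even the closest of these genes followed it loosely. The livers share groups and libraries, and no test was made of these differences. E030018B13Rik and Cyp2d12 reached the required mean of 1 CPM over the 20 livers only through HFD + PCB 126, at 2.69 and 2.50 CPM there. In the other groups their means were 0.575 to 1.13 CPM and 0.923 to 1.04 CPM. Sult1e1, an estrogen sulfotransferase, was 298 CPM in the HFD + PCB 126 liver with the highest Cyp1a1, replicate 4, and at most 18.1 CPM in the other 19. Of these 8 genes outside the members, Slc46a3 alone passed the test with PCB 126 in mice without Aroclor.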

How the data were processed

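Liver RNA of 20 mice was sequenced from stranded poly(A) libraries. The submitters' processing notes name FastQC 0.10.1, STAR 2.6 and HTSeq 0.10.0, and the build GRCm38.p6. The deposited values are raw counts per Ensembl gene. Which annotation release was counted, and whether by strand, is not given in the sources used here. Of 21780 identifiers, 21754 matched GENCODE M21 names. Same-group libraries were not duplicates (lowest chi-square per degree of freedom 19.7 over 40 pairs).

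Genes whose counts summed to 10 or more were fitted with the quasi-likelihood test of edgeR 4.0.16 (R 4.3.3) with TMM scaling, all 20 libraries and the 4 groups, with Benjamini-Hochberg adjustment across 15522 genes (threshold 0.05). CPM are counts per 1000000 of the TMM-scaled library. Log2 CPM used a prior count of 2. Alternatives were other size factors, DESeq2 1.42.0, 2 other filters, only the groups compared, a replicate block, GC correction, a threshold of 0.01 and each library left out. Leaving out the 2 libraries with adrenal genes was added after the data were seen. The fit was also run on simulated counts with the same relative spread set for every gene, which does not cover a spread as wide as that of Cyp1a1 in HFD + PCB 126. Replicates are separate mice. The members and lists were chosen with earlier results of these data known. Named were all 8 members, the pathway genes past the threshold with PCB 126 or in the interaction, and the 5 genes most like Cyp1a1 and Cyp1a2 at a mean of at least 1 CPM. One gene of the pathway list is not reported by name here.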

Additional observations from a re-analysis of the deposited data

Results flagged for a closer look

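Among the 32 sets of 5 livers (8 members in 4 groups), 6 held a liver whose gap to the next, over the range of its group, passed Dixon's 95% limit, where chance gives about 1 in 20. Cyp1a1 was 314 CPM in HFD + PCB 126 replicate 4, with the next liver at 62.1 CPM, and 2.62 CPM in HFD + Aroclor + PCB 126 replicate 5, with the next at 1.19 CPM. Cyp1b1 was 4.39 CPM in HFD control replicate 4 and 6.84 CPM in HFD + Aroclor + PCB 126 replicate 4, the 2 livers with adrenal transcripts. Tiparp was 18.3 CPM in HFD control replicate 5, with the next liver at 7.30 CPM. Nqo1 was 20.5 CPM in HFD + PCB 126 replicate 1, with the next at 12.4 CPM.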

How the results depend on the processing

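Of 455 values of single members under settings other than leaving out a library, 435 kept their side of the threshold, 417 of them with their sign, and with a library left out 946 of 960 did, 909 of them with their sign. The 18 and 37 that changed sign were past the threshold in neither fit. For PCB 126 on Aroclor, 2 members (Cyp1a2 and Arnt) passed in place of 0 with other size factors (log2FC 1.01 and 0.50), DESeq2 (1.01 and 0.50), the FPKM filter (1.03 and 0.52) and the replicate block (1.01 and 0.49). DESeq2 also called Arnt with PCB 126 without Aroclor (0.38), Cyp1b1 with Aroclor on PCB 126 (1.502, but 0.44 in edgeR without the livers with adrenal genes), Ahr with the combined exposure (0.63) and, as 1 member in place of 0, Cyp1a1 in the interaction (-6.51). The FPKM filter added Arnt with Aroclor on PCB 126 (0.30) and Ahr with the combined exposure (0.66). For the combined exposure GC correction lowered the log2FC of Ahr to 0.36 and of Tiparp to 0.32, and neither passed. The fit with only the groups compared left 1 member with PCB 126 without Aroclor, as Cyp1a1 did not pass (6.96). GC correction left 1 with Aroclor on PCB 126, as Cyp1a1 (-5.98) still passed and Cyp1a2 (-1.01) did not, and the threshold of 0.01 left 0 (Cyp1a1 -5.87, Cyp1a2 -1.04). The cause was not tested.

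The sources used here do not say whether the replicate numbers pair the mice. Over 30 same-numbered pairs the median correlation of deviations was 0.050, from -0.26 to 0.74, against a median of -0.012 over pairs of other numbers. It was over 0.1 in 13 of the 30, and 10 of 20 libraries correlated best with their own number. Each library was compared with those of the other groups, most of which bear another number, and no chance level was computed. What same-numbered livers may share was not tested. The block raised the members called with the combined exposure from 2 to 4 (Tiparp 0.91, Ahr 0.66 in addition) and all genes called from 18 to 101 with PCB 126, from 64 to 475 with PCB 126 on Aroclor, from 0 to 26 with Aroclor and from 0 to 38 in the interaction.

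With each library left out, members called ran from 2 to 2 with PCB 126 without Aroclor, 0 to 2 with PCB 126 on Aroclor, 1 to 3 with Aroclor on PCB 126 and 2 to 4 with the combined exposure. Log2FC ran from 0.91 to 1.12 (Cyp1a2) and 0.47 to 0.54 (Arnt) with PCB 126 on Aroclor, from 0.46 to 1.79 (Cyp1b1) and -1.14 to -0.79 (Cyp1a2) with Aroclor on PCB 126, and from -0.41 to 1.53 (Cyp1b1), 0.64 to 1.34 (Tiparp), 0.52 to 0.91 (Ahr) and 0.25 to 0.68 (Nqo1) with the combined exposure.

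Counts over all genes moved more than the members. From 18 with PCB 126 without Aroclor they went to 320 with DESeq2, 48 with the FPKM filter, 58 with GC correction (120 with the block), 4 with only the groups compared or at 0.01, 11 without the livers with adrenal genes, and 4 to 131 with a library left out. From 64 with PCB 126 on Aroclor they went to 107 with other size factors, 1343 with DESeq2, 13 without a filter, 728 with the FPKM filter, 7 with GC correction, and 0 with only the groups compared, at 0.01 or without the livers with adrenal genes. They went from 0 to 135 with DESeq2 for Aroclor alone and to 1 in the interaction, from 2589 to 74 with GC correction (428 with the block), 0 at 0.01 and 1432 without the livers with adrenal genes for Aroclor on PCB 126, and from 5089 to 1917 with GC correction (1975 with the block) and 2867 at 0.01 for the combined exposure. With both GC correction and block they were 22 for Aroclor alone and 39 in the interaction. Of the 36 other pathway genes, the 2 called with PCB 126 on Aroclor became 8 with DESeq2, 5 with the FPKM filter, 6 with the block and 0 without a filter, with only the groups compared, at 0.01, with GC correction or without the livers with adrenal genes. No member gained or lost its call without these livers. Counts were lowest for Ahrr (1 to 22 a library) and also low for Cyp1b1 (13 to 188) and, outside HFD + PCB 126, Cyp1a1 (5 to 75).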

Other observations

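HFD control replicate 4, one of the livers with adrenal transcripts, had the lowest level of the 20 for Cyp1a1 (0.219 CPM), Cyp1a2 (249 CPM) and Nqo1 (5.97 CPM). Ahr was highest in replicate 5 of all 4 groups, at 58.0 CPM in HFD control, 69.9 CPM with Aroclor, 53.6 CPM with PCB 126 and 68.0 CPM with both. What livers of the same number may share was not tested. Tiparp was highest in replicate 5 of 3 of the groups and in replicate 2 of HFD + PCB 126.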
